A study of Mus musculus with 899 samples.

Results

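miR-150 is a microRNA of lymphocytes, and both of its mature arms, mmu-miR-150-5p and mmu-miR-150-3p, were taken by name as 2 of the 1915 miRNA listed in the mouse plasma counts. The rule for the arms used names and no measured value, but earlier results of these data were known when it was made. miR-150 is abundant in mature B and T lymphocytes and scarce in their progenitors, and one of its best-known targets is Myb, a transcription factor of lymphocyte development. Lymphocytes are among the most radiosensitive cells of the body, and miR-150 in plasma has often been used as a marker of lymphocytes. A miRNA gene gives a hairpin that is cut into a 5p and a 3p arm, of which one usually stays in the silencing complex while the other is degraded.

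The plasma libraries came from 196 mice, aged 8 to 12 weeks at irradiation, of the strains C3Hf/Sed/Kam (C3H) and C57Bl/6 (C57). Per the study, the females came from the older part of this age range and the males from the younger part. The mice received a single X-ray dose to the thorax with the rest of the body shielded (whole thorax lung irradiation, WTLI), set for each strain by its lethality, or a sham treatment (64 irradiated and 32 sham C3H mice, 68 irradiated and 32 sham C57 mice). Blood was drawn under anaesthesia 14 days before treatment (PT), on either day 2 or day 5 (D2 and D5, different mice), and monthly from month 1 (M1) to month 4 in C3H and month 6 in C57 mice. Males and females were used, the labels place the C57 mice in the groups G1 and G3 and the C3H mice in G2 and G4, and beyond month 1 samples came from G1 and G2 mice alone. No transgene or deletion was involved. The label groups are called by these codes, because the labels do not say what a group was. The libraries held 206490 to 11814515 miRNA reads (median 1475030), and the 32 groups formed by strain, treatment and time point held 8 to 68 libraries. Fewer irradiated mice were sampled at later months, and 4 irradiated C57 mice had no sample from before treatment.

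Mir150 lies at chr7:45121757-45121821 on the plus strand (GRCm38), 65 bases that overlap no other annotated gene. The nearest gene upstream is Fcgrt, the neonatal Fc receptor, on the minus strand 17905 bases away. Gm45552 begins 95 bases downstream and has the annotated type antisense, but it lies on the plus strand as Mir150 does. The 3p arm lies at chr7:45121798-45121819. Its sequence is shown first, with those of blood cell miRNA and of miR-215-5p and miR-192-5p, miRNA of epithelia, to which miR-150-5p is set later, all from RefSeq for GRCm38.p6, 5′ to 3′, with the seed (bases 2 to 8, which pair with targets) in capitals.
miR-150-3p: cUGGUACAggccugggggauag
miR-155-5p: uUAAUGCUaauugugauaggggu
miR-142a-3p: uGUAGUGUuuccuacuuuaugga
miR-142a-5p: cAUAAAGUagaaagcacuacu
miR-342-3p: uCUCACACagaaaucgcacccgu
miR-146a-5p: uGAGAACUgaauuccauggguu
miR-215-5p: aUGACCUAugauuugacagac
miR-192-5p: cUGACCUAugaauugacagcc
None of the 1679 mature miRNA in the RefSeq table shares the seed of miR-150-3p. Of the 8 sequences shown, miR-215-5p and miR-192-5p share a seed. Of 32 miRNA looked up, 26 were matched, and miR-150-5p is given by name only.

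The arms differed in abundance by several orders of magnitude. miR-150-5p was found in every library with 504 to 292006 reads (median 13555), and it ranked between 3rd and 55th among all miRNA of a library (median rank 18). It made up 0.0927% to 3.37% of the reads of a library (median 0.907%). miR-150-3p, the arm of the sequence above, had 120 reads in total, 0.000857% of all miR-150 reads. It was at 0 in 845 libraries, at 1 read in 25 and at most 8 reads in any other. miR-150-3p did not pass the filter on low counts that 483 miRNA passed, so its level was not tested. In 12 of the 32 groups no read of it was found, which allows a share of at most 0.000534% to 0.00384% of the miR-150 reads of the group (3 counts summed over the libraries of a group, counting error only). The share of the 3p arm was compared between irradiated and sham mice in the 13 comparisons of strain and time point that held a read of it. The smallest adjusted p was 0.391 (two-sided permutation tests), and 1 comparison was below an unadjusted 0.05. That was C3H at day 2, where 0 of 32 irradiated and 3 of 16 sham libraries held a read (unadjusted p = 0.0321, permutation test with 100000 resamples). Everything that follows is about the 5p arm.

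Before treatment, miR-150-5p passed no test of a difference between the strains or between mice of either later treatment in the TMM scaling. In log2 CPM (counts relative to the library total, scaled by edgeR's trimmed mean of M-values, TMM), the 64 C3H mice later irradiated ranged from 12.58 to 14.37 with a median of 13.52, and the 32 later sham mice from 12.82 to 13.94 with a median of 13.61. The 64 C57 mice later irradiated ranged from 12.64 to 15.01 (median 13.48), and the 32 later sham mice from 12.60 to 14.12 (median 13.53). These 4 groups overlapped. Of the later irradiated libraries, 10 in C3H and 3 in C57 mice lay above the highest later sham one of the strain, and 3 and 0 below the lowest. The strains differed by 0.01 (C57 minus C3H, log2 scale, standard error 0.08). The adjusted p of this difference was 0.927 in the quasi-likelihood test of edgeR, adjusted after Benjamini and Hochberg over all 483 miRNA. Of all miRNA tested, 50.7% differed between the strains before treatment. Irradiated minus sham was 0.04 in C3H and 0.06 in C57 mice at that time (edgeR adjusted p = 0.994 and 0.973), and 0% of the miRNA passed in either strain. The baseline of miR-150-5p depended on the scaling: with libraries scaled to 6 reference miRNA the strain difference was 0.22 (edgeR adjusted p = 0.0111), a scaling that moved the median of all miRNA by 0.21 in that comparison.

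**Figure D1:**
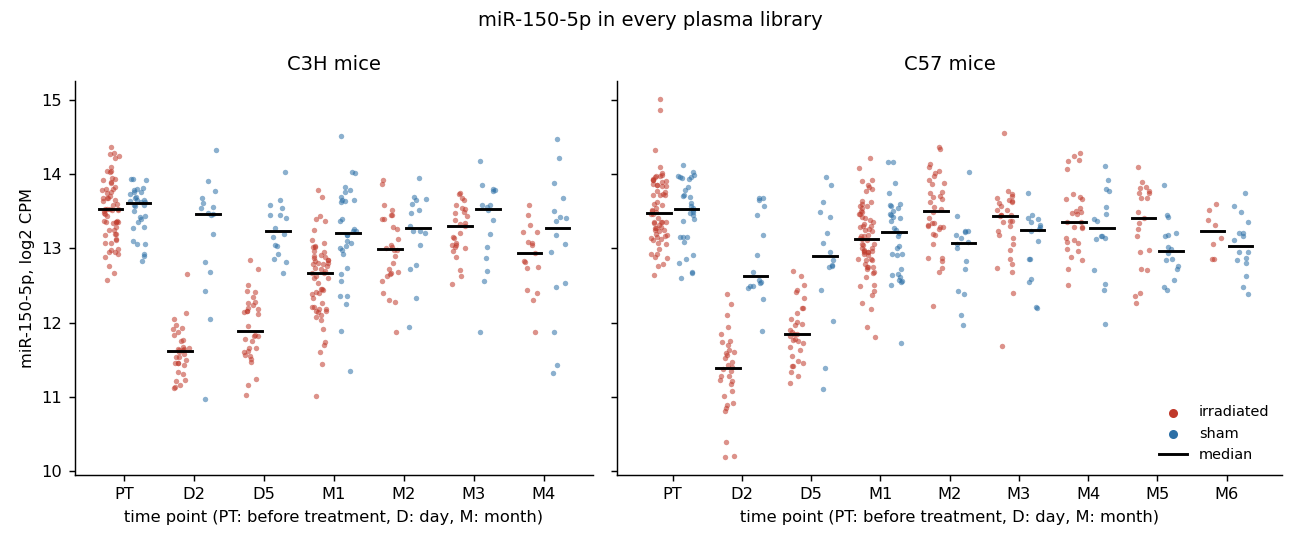
miR-150-5p in each plasma library, as log2 CPM on the vertical axis, by strain (panels), time point (horizontal axis) and treatment (red irradiated, blue sham), with black bars for the medians. The irradiated mice form a low cloud at D2 and D5 in both strains, with medians of 11.62 and 11.89 in C3H and of 11.39 and 11.85 in C57, and a few sham libraries at those times lie as low.

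At day 2 after WTLI, miR-150-5p was lower in irradiated than in sham mice of both strains. In C3H mice, the 32 irradiated libraries ranged from 11.12 to 12.66 (median 11.62) and the 16 sham libraries from 10.97 to 14.32 (median 13.47). All 32 irradiated libraries lay below the sham median, and 13 of 16 sham libraries lay above the highest irradiated one, but the groups overlapped. The level was 3.26-fold lower (95% interval of the log2 fold change -1.99 to -1.42), the smallest p of the 483 miRNA in that comparison, in which 4.97% passed. In C57 mice, the 32 irradiated libraries ranged from 10.19 to 12.38 (median 11.39) and the 16 sham libraries from 11.88 to 13.67 (median 12.63). Of the 32 irradiated libraries, 28 lay below the lowest sham library. The level was 2.93-fold lower (95% interval of the log2 fold change -1.83 to -1.26), the second smallest p where 6.63% of miRNA passed. As a share of reads, the median was 1.36% in sham and 0.328% in irradiated C3H mice and 0.612% and 0.260% in C57 mice, and the median rank in a library was 13.5 and 35 in C3H and 20.5 and 38 in C57 mice. Depth differed between the C57 groups of that day, with a median of 859418 reads in irradiated and 1300997 in sham libraries, and with libraries of at least 500000 reads alone the log2 fold change was -1.55. In plasma, fewer cells that release a miRNA and less miRNA released per cell cannot be told apart.

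At day 5, in other mice, miR-150-5p was again lower in the irradiated mice of both strains. C3H irradiated mice ranged from 11.03 to 12.84 (median 11.89) against 12.67 to 14.02 (median 13.24) in 16 sham mice, and 30 of 32 irradiated libraries lay below the lowest sham one. The log2 fold change was -1.29 (95% interval -1.58 to -1.01, edgeR adjusted p = 1.48e-15), with the smallest p of all miRNA, and 3.11% passed. C57 irradiated mice ranged from 11.18 to 12.69 (median 11.85) against 11.11 to 13.96 (median 12.89) in 16 sham mice. All 32 irradiated C57 libraries lay below the sham median, but the lowest library of all was a sham one. The log2 fold change there was -1.10 (95% interval -1.39 to -0.81), where 14.1% of miRNA passed. Between days 2 and 5 the effect changed by 0.41 in C3H (edgeR adjusted p = 1.00, 0% of miRNA passed) and by 0.45 in C57 mice (edgeR adjusted p = 0.200, 6.63% passed), so neither change passed the test.

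Within single mice, miR-150-5p fell in every irradiated animal sampled at days 2 and 5. Each mouse of the day 2 and day 5 groups had its own sample from before treatment, and all 32 irradiated mice of each strain lay below their own earlier level at day 2, as did all 32 at day 5. In C3H mice the change from the own sample ranged from -2.98 to -0.45 (median -1.92) at day 2 and from -2.72 to -0.41 (median -1.69) at day 5. In C57 mice it ranged from -3.51 to -1.34 (median -2.18) and from -3.67 to -0.65 (median -1.45). Sham mice moved in both directions: 9 of 16 C3H sham mice were below their own sample at day 2 and 13 of 16 at day 5, and 14 of 16 and 11 of 16 C57 sham mice. The sham medians were -0.16 and -0.26 in C3H and -0.70 and -0.27 in C57 mice.

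**Figure D2:**
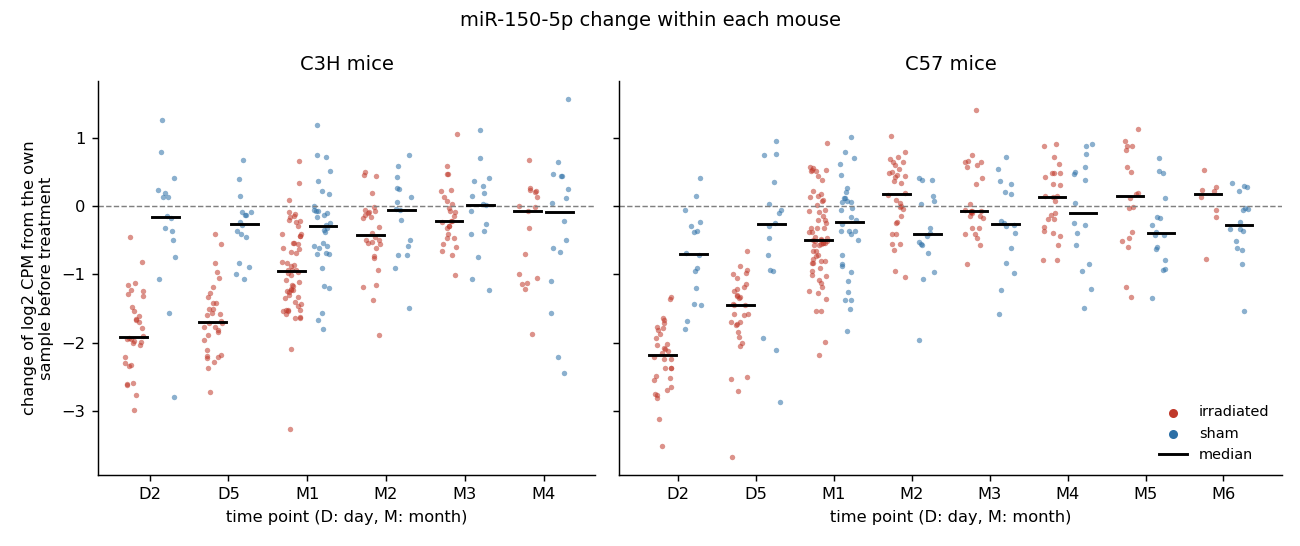
Change of miR-150-5p (log2 CPM) from the mouse's own sample before treatment on the vertical axis, by time point, strain and treatment (red irradiated, blue sham, black bars medians, dashed line no change). All irradiated mice lie below the line at D2 and D5, and 55 of 58 C3H but 48 of 64 C57 mice do at M1.

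Sham libraries that stood apart at days 2 and 5 moved the size of the effect. Each strain at each of these days held 4 cells of label group and sex, with 8 irradiated and 4 sham mice in a cell. At day 2 in C3H mice, the mean of irradiated minus sham was -2.02 in G2 females, -1.94 in G4 females and -1.90 in G4 males, but -0.39 in G2 males. The 4 sham G2 males were at 12.43, 12.82, 10.97 and 12.05 and included the lowest library of the whole group. In the other 3 cells irradiated and sham mice did not overlap. Without the G2 males of both treatments (chosen after seeing the data) the log2 fold change at day 2 was -1.92 (edgeR adjusted p = 7.70e-28). At day 5 in C3H mice the 4 cells ran from -1.81 to -1.13.

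In C57 mice at day 2 the 4 cells ran from -2.29 to -1.07, with no overlap in any of them. At day 5 they were -1.46 in G1 females, -1.55 in G1 males, -1.22 in G3 males and 0.35 in G3 females, the only cell of the 16 at these days in which irradiated mice were higher. Of the 4 sham G3 females, 3 gave libraries with 613538, 424138 and 419427 reads and TMM factors of 0.66, 0.54 and 0.53. In these 3 libraries the 7 erythroid miRNA of the red cell list, summed with the 5p arms of both miR-486a and miR-486b, held 0.913%, 0.620% and 1.09% of the reads, against a median of 5.25% over the 16 sham libraries of that day, and miR-150-5p was at 12.02, 11.11 and 11.39. The fourth sham G3 female, with 1406579 reads and an erythroid share of 3.45%, was at 13.49. The part of depth and of red cell content in these values was not tested. Without the G3 females of both treatments the log2 fold change at day 5 was -1.41 (edgeR adjusted p = 3.88e-14), and without the 6 libraries of the series whose erythroid share was under 2% it was -1.25 (edgeR adjusted p = 2.70e-13), both alternatives chosen after seeing the data. At day 5 both label groups of C57 mice passed alone, as G3 mice gave -0.62 (edgeR adjusted p = 0.0165) and G1 mice -1.48 (edgeR adjusted p = 3.14e-11).

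**Figure D3:**
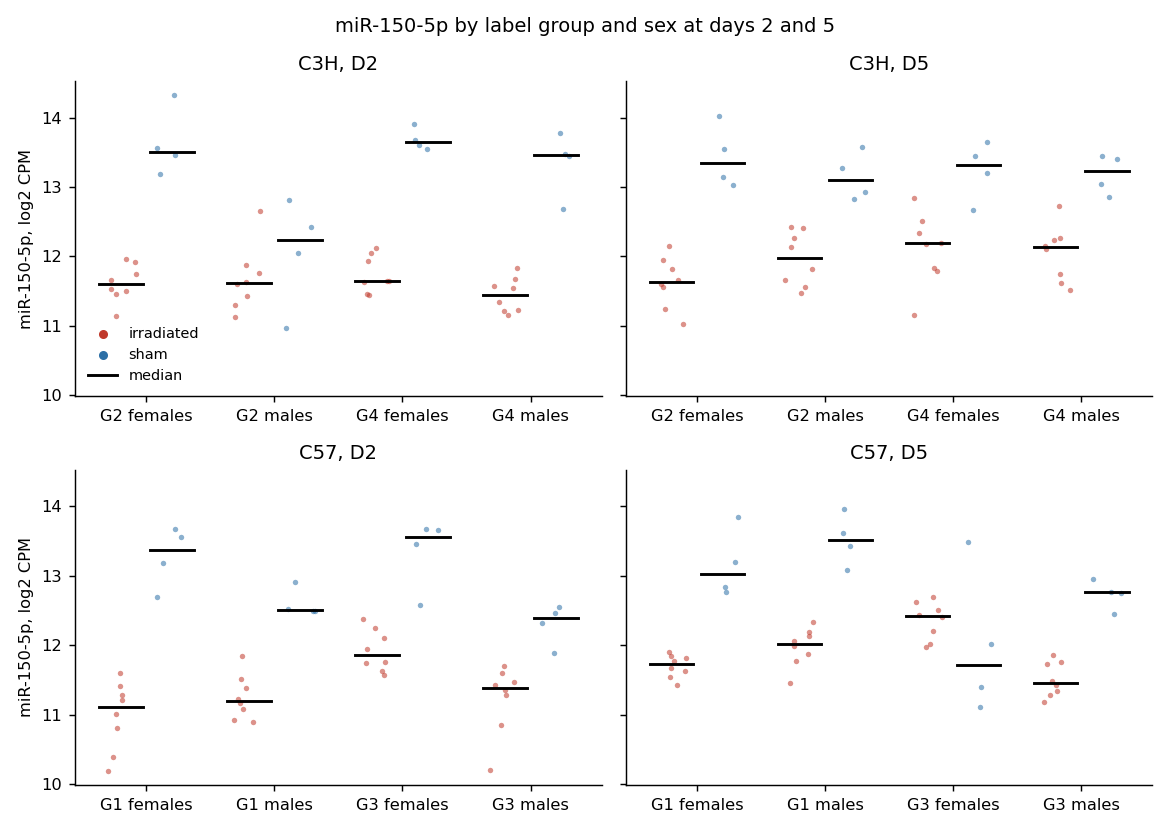
miR-150-5p (log2 CPM, vertical axis) of irradiated (red, 8 mice) and sham (blue, 4 mice) libraries by label group and sex (horizontal axis) at D2 and D5 in each strain, with black bars for medians. Sham medians lie above irradiated medians everywhere except in the C57 G3 females at D5, and among the other cells drawn the difference is smallest in the C3H G2 males at D2. These are the 2 cells whose sham libraries are low.

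At month 1, miR-150-5p was lower in irradiated than in sham C3H mice, and in C57 mice it did not pass the test. The difference between the strains was tested directly and depended on the fit, as given with that test. In C3H mice, 58 irradiated libraries ranged from 11.01 to 13.78 (median 12.67) and 32 sham libraries from 11.35 to 14.52 (median 13.21), with 52 of 58 irradiated libraries below the sham median. The log2 fold change was -0.62 (standard error 0.11, edgeR adjusted p = 8.16e-07), the fourth smallest p, where 3.31% of miRNA passed. In C57 mice, 68 irradiated libraries ranged from 11.81 to 14.22 (median 13.12) and 32 sham libraries from 11.73 to 14.17 (median 13.22). Their log2 fold change was -0.05 (95% interval -0.26 to 0.15, edgeR adjusted p = 0.937), where 3.73% passed. From day 5 to month 1 the effect rose by 0.67 in C3H (standard error 0.18, edgeR adjusted p = 0.0225, 1.24% of miRNA passed) and by 1.05 in C57 mice (standard error 0.18, edgeR adjusted p = 2.01e-06, 10.1% passed). Over the own sample, 55 of 58 C3H mice were still below their level before treatment (median change -0.95) and 48 of 64 C57 mice (median change -0.49), against 25 of 32 (median -0.30) and 20 of 32 (median -0.23) of the sham mice. The C3H call at month 1 was lost without the 10% of libraries richest in erythroid miRNA (-0.37, edgeR adjusted p = 0.0574) and among G2 mice alone (-0.43, edgeR adjusted p = 0.160), while G4 mice alone gave -0.72 (edgeR adjusted p = 2.26e-04). The erythroid cut was set over all libraries of both strains and took out 90. Median erythroid shares of irradiated and sham mice at month 1 were 7.99% and 7.45% in C3H and 5.24% and 5.42% in C57. How many C3H libraries of month 1 were taken out is not given, so fewer libraries and red cell content cannot be told apart there.

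The test of the difference between the strains, an F test over the 6 time points after irradiation that both had, passed for miR-150-5p (edgeR adjusted p = 0.000198), the 7th smallest p among the 21 miRNA (4.35%) that did. By time point, the share of miRNA with a strain difference was 0.621% at day 2, 1.86% at day 5, 1.24% at month 1, 0.207% at month 2, 0.414% at month 3 and 1.24% at month 4. miR-150-5p was among those at month 1 (95% interval of C57 minus C3H 0.27 to 0.87) and at no other time. At day 2 the interval was -0.26 to 0.57 and at day 5 -0.22 to 0.61. The month 1 difference kept its call in 2 of 6 alternatives. It was lost with reference miRNA scaling (0.53, edgeR adjusted p = 0.0697), in limma-voom (0.54, adjusted p = 0.0725), with the mouse as a random block in limma-voom (0.54, adjusted p = 0.0705) and in the change from the mouse's own earlier sample with the mouse as a fixed block (0.45, limma-voom adjusted p = 0.677), a fit that leaves out the 4 mice without one. The F test kept its call in 5 of the 6, with the random block among them (adjusted p = 0.00428), and did not pass with the fixed block (limma-voom adjusted p = 0.398). The reference miRNA were themselves not all unchanged by WTLI. At month 1 in C3H mice, 1 of the 6 passed lower and 1 higher, where 3.31% of all miRNA passed. At days 2 and 5, 1 passed lower in C3H (4.97% and 3.11% of all miRNA passed). In C57 mice 1 passed lower and 1 higher on each of these days (6.63% and 14.1%). At month 3 in C3H, 1 passed higher (2.07%).

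**Figure D4:**
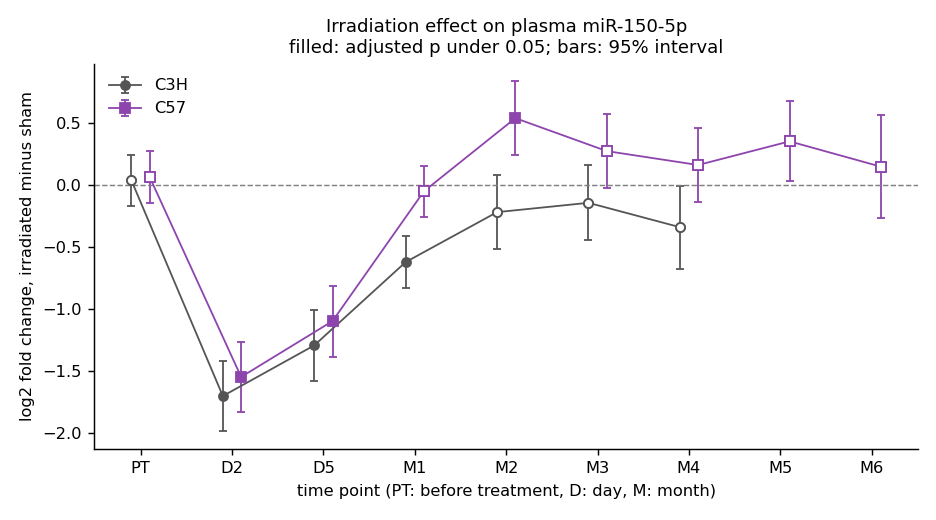
Log2 fold change of miR-150-5p, irradiated minus sham, with its 95% interval, by time point (horizontal axis) in C3H (grey circles) and C57 (purple squares) mice. Filled symbols had an edgeR adjusted p under 0.05: the effect was -1.70 and -1.55 at D2, and at M1 it was -0.62 in C3H but -0.05 in C57.

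From month 2 on, the fitted effects were below 0 in C3H and above 0 in C57 mice, and 1 of them passed. In C3H mice the log2 fold changes of months 2, 3 and 4 were -0.22, -0.15 and -0.34, and none passed (edgeR adjusted p = 0.720, 0.667 and 0.559, with 0.621%, 2.07% and 0.414% of miRNA passing). The 28 irradiated C3H mice at month 2 had a median of 12.99 and the 16 sham mice of 13.27, the 27 and 16 mice at month 3 medians of 13.31 and 13.54, and the 17 and 16 mice at month 4 medians of 12.94 and 13.27. In C57 mice at month 2, 36 irradiated libraries ranged from 12.23 to 14.36 (median 13.51) and 16 sham libraries from 11.97 to 14.03 (median 13.07). Of the irradiated libraries, 7 of 36 were below the sham median and 5 above the highest sham library. The log2 fold change of 0.54 (standard error 0.15, edgeR adjusted p = 0.0165) was the 12th smallest p, where 3.31% of miRNA passed. Of the 16 comparisons, this was the only one in which miR-150-5p passed as higher. The call was lost with scaling to reference miRNA (0.46, edgeR adjusted p = 0.104), without the 4 mice that lacked an earlier sample (0.47, edgeR adjusted p = 0.0601), and with the mouse as a fixed block (0.58, limma-voom adjusted p = 0.0723).

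By sex, the 20 irradiated C57 females ranged from 12.83 to 14.36 (median 13.76) and the 8 sham females from 12.39 to 13.24 (median 13.09). The 16 irradiated males ranged from 12.23 to 13.88 (median 13.24) and the 8 sham males from 11.97 to 14.03 (median 13.07). Females alone gave 0.71 (edgeR adjusted p = 0.0269) and males alone 0.13 (edgeR adjusted p = 0.998). The difference between the sexes at month 2 was not tested, and sex and age cannot be told apart in it. At months 3, 4, 5 and 6 the C57 log2 fold changes were 0.27, 0.16, 0.35 and 0.15, and none passed (edgeR adjusted p = 0.519, 0.632, 0.259 and 0.851, with 1.66%, 4.76%, 3.52% and 0.414% of miRNA passing). Irradiated medians were 13.44, 13.35, 13.41 and 13.23 in 31, 29, 21 and 8 mice, and sham medians 13.25, 13.27, 12.97 and 13.03 in 16 mice each. No change between successive months passed. From month 1 to month 2 the effect rose by 0.40 in C3H (edgeR adjusted p = 0.997, 0.207% of miRNA passed) and by 0.59 in C57 mice (edgeR adjusted p = 0.162, 0.414% passed). Month 1 held both label groups of a strain and month 2 only G2 or G1, so these steps also change the mice compared. At month 1 the mean of irradiated minus sham was -0.67 and -0.21 in G2 females and males and -0.72 and -0.70 in G4. It was -0.18 and 0.18 in G1 and -0.32 and 0.17 in G3. The part of the label groups in these steps was not tested. The later steps lay between -0.27 and 0.19, with edgeR adjusted p from 0.967 to 1.00, and 0% of miRNA passed in each of them except 0.828% from month 3 to month 4 in C57 mice.

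The fitted sham levels also lay below those from before treatment, by an amount that depended on the scaling. In C3H sham mice the F test over all times against the sample before treatment gave an edgeR adjusted p of 0.590, where 46% of miRNA passed, and the differences ran from -0.25 to -0.11. In C57 sham mice it gave an edgeR adjusted p of 0.00190, where 62.9% passed, and all 8 differences were negative, from -0.55 at day 2 to -0.21 at month 4. From month 2 on, G1 or G2 mice were set, unpaired, against both label groups of the strain before treatment. Before treatment, sham C57 means were 13.29 and 13.35 in G1 females and males and 13.87 and 13.38 in G3. At months 2 to 6 the C57 differences were -0.51, -0.42, -0.21, -0.49 and -0.44. Mean changes from the own sample were -0.38, -0.27, -0.09, -0.33 and -0.27. In C3H they were -0.17, -0.05 and -0.33 at months 2 to 4, against -0.25, -0.11 and -0.25. With reference miRNA scaling the F test passed in both strains (edgeR adjusted p = 0.0392 in C3H and 0.0125 in C57). The differences at days 2 and 5 in C57 sham mice were then -0.30 and -0.15, and that at month 4 in C3H sham mice was -0.52 (edgeR adjusted p = 0.00508) in place of -0.25. Whether sham mice of the strains differed in this was not tested. That scaling moved the median of all miRNA by -0.24 to 0.36 in these comparisons of sham mice and by -0.16 to 0.03 in the comparisons of irradiated with sham mice.

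Ordered by mean level, the 32 groups ran from 13.52 in C57 mice before treatment to 11.35 in irradiated C57 mice at day 2. The 5 lowest were the irradiated C3H mice at month 1 (12.59 ± 0.53, SD, n = 58) and day 5 (11.94 ± 0.44, SD, n = 32), the irradiated C57 mice at day 5 (11.89 ± 0.40, SD, n = 32), the irradiated C3H mice at day 2 (11.62 ± 0.33, SD, n = 32) and the irradiated C57 mice at day 2 (11.35 ± 0.53, SD, n = 32). Of the 31 steps between neighbours in that order, 1 exceeded the larger SD of its pair, the step of 0.65 between irradiated C3H mice at month 1 and at day 5. The other neighbours in the order did not differ beyond their spread.

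miR-150-5p did not pass the test of a sex difference. The females were also the older mice, so sex and age cannot be told apart in this test. The F test of the sex difference of the effect over day 2, day 5 and month 1 gave an edgeR adjusted p of 0.834 in C3H (0.737% of 543 miRNA tested passed) and 0.0527 in C57 mice (5.16% passed). In females minus males, the log2 fold change differed by -0.75 (standard error 0.28) at day 2 in C3H, by -0.70 (standard error 0.28) at day 2 in C57 and by 0.67 (standard error 0.28) at day 5 in C57 mice. The first and the last of these contain the low sham libraries of the C3H G2 males and of the C57 G3 females. At day 2 in C57 mice, sham females had a median of 13.51 and sham males of 12.49, and irradiated females and males 11.58 and 11.32. Both sexes alone passed at days 2 and 5 in both strains, with log2 fold changes from -2.02 to -0.82 in females and from -1.48 to -1.12 in males.

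Whether the early level went with later sampling was asked in the irradiated G1 and G2 mice, which were followed to the end. The labels list a sample at the last time point (month 4 in C3H, month 6 in C57) for some of them. They do not say why a mouse has none, and the study reported deaths of irradiated mice of both strains from late radiation injury. At day 2, 10 C3H mice sampled at the end had a median of 11.62 and 6 others of 11.60, and at month 1, 17 sampled mice had a mean 0.25 lower than 13 others. In C57 mice at month 1 the 8 sampled mice had a mean 0.28 lower than the 28 others, and 0.17 lower than 24 of these without the 4 mice that lacked a sample before treatment, which stood between 13.60 and 14.22 (exact permutation test, adjusted p = 0.665, chosen after seeing the data). With those 4 females, the C57 difference at month 1 was -0.53 in females and -0.05 in males. At days 2 and 5 it was 0.07 and -0.20 over both sexes. Differences within a sex were not tested. No difference of the 6 compared passed, with adjusted p from 0.378 to 0.927 (two-sided permutation tests, exact where a group held under 10 mice). The paper associated a lower early level with poorer survival of C3H mice, divided at the median level. Survival times were not used here, and sampling at the last time point is another measure in small groups. These tests therefore cannot decide on that association. With the ratio to reference miRNA the C57 difference at month 1 was -0.30 (unadjusted exact p = 0.0464, adjusted p = 0.279), and -0.23 without those 4 mice (unadjusted exact p = 0.107).

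No relation between the level of a mouse at month 1 and its level before treatment passed the test. Over mice with both samples, the level before treatment and at month 1 had a Pearson r of 0.11 and Spearman rho of 0.15 in 58 irradiated C3H mice, 0.16 and 0.15 in 32 sham C3H mice, 0.04 and 0.03 in 64 irradiated C57 mice and -0.05 and -0.06 in 32 sham C57 mice. All 4 had adjusted permutation p of 0.789 or more for r and 0.830 or more for rho. Leaving out the 2 mice farthest from the median gave r of 0.06, 0.38, 0.02 and -0.21, and after subtracting the mean of each label group and sex r was 0.01, -0.02, 0.15 and -0.09.

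Of other lymphocyte and blood cell miRNA, miR-155-5p was most like miR-150-5p. miR-155-5p, which is induced in activated lymphocytes and myeloid cells, had a Pearson r of 0.93 with miR-150-5p over the 16 log2 fold changes, against a median of 0.01 over the 482 other miRNA tested. It fell at day 2 and day 5 in C3H (-1.51 and -0.79) and in C57 mice (-1.15 and -1.41, edgeR adjusted p at most 0.00357 in these 4), and it passed at no other time. Next were miR-103-3p (0.78), which is also one of the 6 reference miRNA, miR-342-3p (0.77), miR-146a-5p (0.77), a feedback inhibitor of immune signalling, and miR-350-3p (0.76). Of these, miR-342-3p, a miRNA enriched in lymphocytes, passed in none of the 16 comparisons, with log2 fold changes from -0.32 to 0.35. miR-103-3p fell in C3H at day 2 (-0.61), day 5 (-0.59) and month 1 (-0.48) and in C57 at day 2 (-0.56). For C57 mice at day 5, miR-155-5p was not refitted without the shallow sham libraries of G3 females.

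The lymphocyte-enriched list held 6 miRNA, of which 5 were tested. miR-342-5p had 59 reads in all and was not. At day 2, 2 of 5 passed lower in C3H mice, miR-155-5p and miR-146a-5p (-0.45, edgeR adjusted p = 0.0409), with a median of the list of -0.45 against -0.03 over all miRNA, of which 3.31% passed lower. In C57 mice 1 of 5 passed, miR-155-5p, with a median of -0.19 against -0.06, and 4.35% of all miRNA passed lower. At day 5, 1 of 5 passed lower in either strain, again miR-155-5p, with medians of -0.59 and -0.12 against medians of about 0 over all miRNA. Of all miRNA, 1.45% passed lower at that time in C3H and 7.87% in C57 mice. At month 1 and later none of the list passed in either strain, and neither did the leukocyte pair miR-142a-3p and miR-142a-5p, which are made across blood cells. The pair fell at day 2 in C3H mice (-0.99 and -1.10). At day 5 miR-142a-5p fell in C3H (-0.81) and miR-142a-3p in C57 mice (-1.54). The myeloid miR-223-3p fell at day 5 in C57 mice (-1.12, edgeR adjusted p = 1.37e-08) and at no other time, and miR-223-5p, its other arm, at none. The C57 calls of day 5 rest on a sham group that held the shallow libraries of G3 females. None of these listed miRNA was refitted without those libraries.

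Few red cell and vessel miRNA passed. Of the 7 erythroid miRNA, none passed lower at any time, 2 passed higher at day 5 in C3H (miR-144-3p by 0.90 and miR-144-5p by 1.14) and 1 in C57 mice (miR-144-5p by 1.52). Over all miRNA, 1.66% passed higher at day 5 in C3H and 6.21% in C57 mice. The C57 sham group of that day held the shallow G3 female libraries with low erythroid shares. None of the red cell and vessel miRNA was refitted without those libraries. The 5p arms of miR-486a and miR-486b had 42879762 and 42871245 reads, so that the same reads may stand in both, while their 3p arms had 43936 and 23373. The summed erythroid share of reads at day 2 had a median of 8.29% (6.20% to 14.7%) in irradiated and 7.35% (4.02% to 11.0%) in sham C3H mice, and of 4.73% (2.83% to 8.73%) and 5.91% (3.13% to 8.78%) in C57 mice. At day 5 it was 7.67% (5.37% to 13.1%) and 7.76% (5.95% to 13.5%) in C3H, and 4.88% (2.95% to 6.50%) and 5.25% (0.620% to 8.19%) in C57 mice. These sums hold both 5p arms of miR-486. With miR-486b-5p left out, the medians of irradiated and sham mice were 4.73% and 4.24% at day 2 and 4.36% and 4.48% at day 5 in C3H, and 2.58% and 3.22% and then 2.79% and 2.80% in C57 mice. Of the endothelial and platelet pair, miR-126a-5p rose at day 5 (0.69) and month 2 (0.50, where 2.28% of all miRNA passed higher) in C57 mice and miR-126a-3p passed at no time. Their part in the level of miR-150-5p was not tested.

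**Figure D5:**
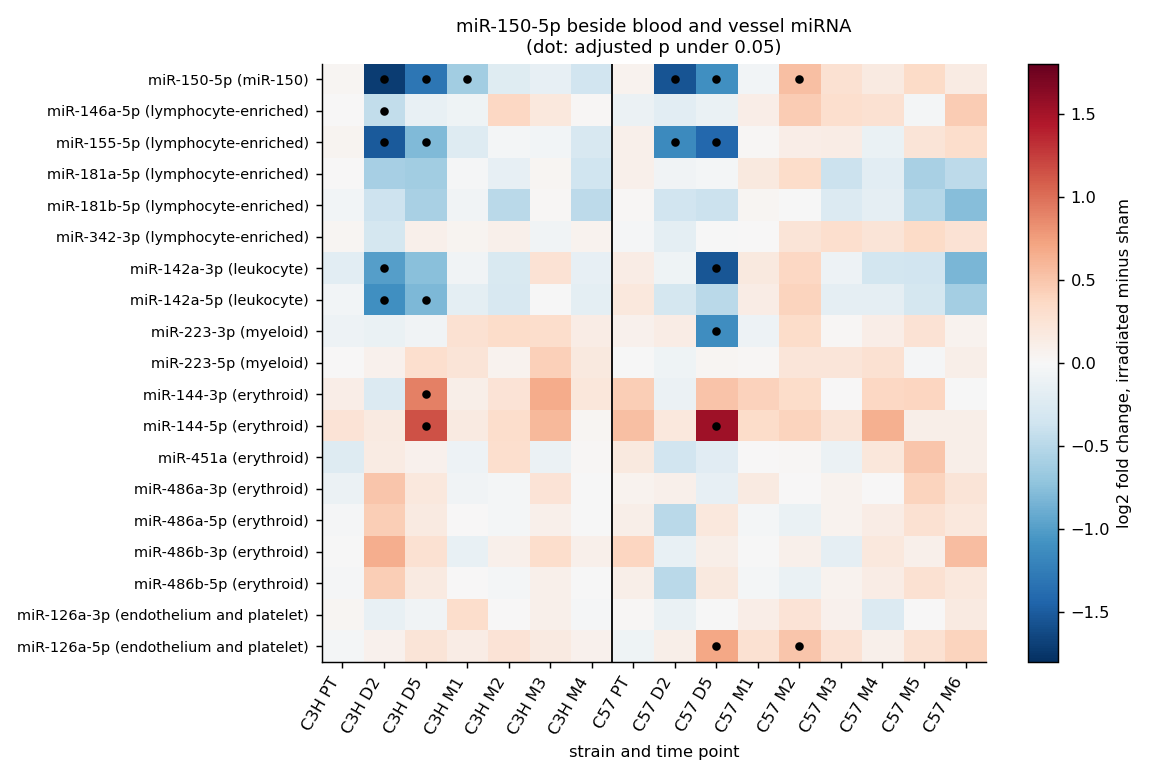
Log2 fold change, irradiated minus sham (colour, blue lower and red higher), of miR-150-5p (top row) and of the lymphocyte-enriched, leukocyte, myeloid, erythroid, and endothelium and platelet miRNA (rows) at each strain and time point (columns), with a dot where the edgeR adjusted p was under 0.05. miR-150-5p and miR-155-5p share dots at D2 and D5 in both strains, and miR-150-5p alone of these rows has one at M1.

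Among samples of one group, other miRNA went with miR-150-5p. After the group means were subtracted, the highest Pearson correlations over all libraries were with miR-139-5p (0.54), miR-215-5p (0.52), miR-142a-5p (0.47), miR-192-5p (0.45) and let-7d-3p (0.43), against a median of -0.01 over 482 miRNA. The libraries share sequencing depth and scaling, so these are descriptions. miR-155-5p, the closest in its response to WTLI, had a correlation of 0.09 here, and the correlations of miR-342-3p and miR-146a-5p were 0.35 for both.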

How the data were processed

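The deposited values were read counts per mature miRNA, in 1 table with a column for each plasma sample. Per the labels and the study's methods, the authors drew plasma, left out samples with excess hemolysis and runs with few miRNA reads, made QIAseq libraries and aligned the trimmed reads to mouse mm10 in BaseSpace. Whether molecular identifiers were used to make these counts is not given in the sources used here, so counting precision is that of reads.

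Samples were grouped by strain, treatment and time point from their titles, and no 2 libraries held identical values. The counts were tested with edgeR 4.0.16 in R 4.3.3 (TMM, filterByExpr, quasi-likelihood, 32 group means over all libraries, Benjamini-Hochberg over the 483 miRNA that passed the filter, threshold 0.05), which was checked on simulated data. Log2 CPM used a prior count of 2. Permutation tests used random resampling or full enumeration, and the correlations of levels before treatment and at month 1 used scipy 1.17.1. The alternatives used limma 3.58.1 and DESeq2 1.42.0.

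Days 2 and 5 were different mice, and other time points repeated mice, so libraries of 1 mouse were compared: over 99 abundant miRNA, deviations from the group means had a mean correlation of 0.082 between libraries of a mouse (1962 pairs) and -0.000166 between mice. The mouse numbers come from the titles, and fits with the mouse as a block stand beside a result where they changed a call. Named miRNA were both miR-150 arms, fixed lists of blood cell and reference miRNA, miRNA sharing a seed, and the 5 most like miR-150-5p by each of 2 correlations. These members and lists were chosen with earlier results of these data known.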

Additional observations from a re-analysis of the deposited data

Results flagged for a closer look

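The effect of WTLI on miR-150-5p differed between the strains in the edgeR fit, a call that did not hold in every alternative. An edgeR quasi-likelihood F test over the 6 time points after irradiation gave a Benjamini-Hochberg adjusted p of 0.000198 for C57 against C3H mice. It passed in 5 of 6 alternatives and was lost with the mouse as a fixed block (limma-voom adjusted p = 0.398). The interaction at month 1 was 0.57 (C57 minus C3H, log2 scale, standard error 0.15, edgeR adjusted p = 0.0166), from a log2 fold change of -0.62 in C3H and -0.05 in C57 mice. This month 1 call held in 2 of 6 alternatives and was lost in the other 4, among them reference miRNA scaling (0.53, edgeR adjusted p = 0.0697), and its adjusted p rose to 0.677 in the fixed block fit. In C3H, 55 of 58 irradiated mice were below their own sample before treatment at that time and in C57 mice 48 of 64. The 1 group of 4 to 10 libraries, the 8 irradiated C57 mice at month 6, held no library that stood apart, and larger groups were not checked this way.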

How the results depend on the processing

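At days 2 and 5 miR-150-5p passed as lower in both strains under every alternative run, with log2 fold changes from -2.02 to -0.62 and edgeR, DESeq2 or limma adjusted p of at most 0.0165. Of all 296 values of irradiated against sham mice under alternatives, 287 kept their direction and their side of the threshold. The month 1 call in C3H was lost without the 10% of libraries richest in erythroid miRNA (-0.37) and among G2 mice alone (-0.43). The month 2 call in C57 was lost with reference miRNA scaling (0.46), in the change from the own sample with the mouse as a replicate block (0.58), without the 4 mice that lacked an earlier sample (0.47) and among males alone (0.13). Values that had not passed turned sign among males alone in C3H at month 3 (0.12) and in C57 at month 1 (0.14), and among G1 mice alone in C57 before treatment (-0.085). The strain difference before treatment was 0.22 with reference miRNA scaling and passed, and -0.020 with limma-voom. The strain difference of the effect at day 2 was -0.017 with the mouse as a fixed replicate block, under which the F test of the strains had an adjusted p of 0.398. The strain difference at month 1 was lost in 4 of 6 alternatives, with values from 0.45 to 0.57 over all 6. The F test over time in C3H sham mice passed with reference miRNA scaling (adjusted p = 0.0392). With the ratio to reference miRNA the day 2 difference by later sampling in C3H mice was 0.057, and the correlation before treatment to month 1 was -0.00190 in irradiated and -0.18 in sham C3H mice. The mouse as a random or fixed replicate block changed no call of irradiated against sham mice other than that at month 2. The cause of these changes was not tested.

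miR-150-3p had too few reads for any statement on its level. Without the filter on low counts its fitted changes rested on groups at 0 reads and are not given. Irradiated groups became smaller at later months, down to 17 mice in C3H at month 4 and 8 in C57 at month 6, and hold only mice still sampled by then. Whether reads were collapsed by molecular identifiers is not known, and hemolysed plasma was left out by the authors before deposit.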
